A study of Mus musculus with 6 samples.

Results

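Transcripts of 10 mouse genes of fatty acid elongation and desaturation were followed in liver: Elovl1, Elovl2, Elovl3, Elovl5, Elovl6, Fads1, Fads2, Scd1, Scd2 and Hacd3. They were chosen by gene symbol from the 55536 genes in the files, with the result of the PS-MP against water comparison already known, so their values in that comparison are a description and support nothing. RNA sequencing gave 6 liver libraries from male C57BL/6 mice, an inbred strain. Dosing began at 6 weeks of age. The PS-MP group (3 libraries) received polystyrene microplastics by mouth at 0.4 mg per day, and the water group (3 libraries) received water, both with 2 dosings a week for 8 weeks. Whether each library is a mouse of its own is not said in the labels, and the p-values therefore rest on library-to-library spread only.

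Fatty acids are lengthened at the endoplasmic reticulum in a repeating cycle of condensation, reduction, dehydration and a second reduction. An ELOVL protein carries out the condensation and sets which fatty acids are lengthened, and HACD proteins carry out the dehydration. Desaturases insert double bonds with electrons passed on by cytochrome b5. In liver, SCD1 makes oleate and palmitoleate, while FADS2, ELOVL5, FADS1 and ELOVL2 act in turn on the essential fatty acids of the diet to make arachidonate and docosahexaenoate. Many of these genes are targets of the lipogenic factor SREBP-1c, of LXR or of PPARalpha.

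The libraries held 13082210 to 16948343 reads, recovered from the deposited FPKM (reads normalised for the length of the exons and the size of the library). Hepatocyte markers such as Alb were high in every library, and their sum over 8 genes ran from 87920 to 104300 CPM (reads normalised for library size only) in PS-MP and from 101200 to 109400 CPM in water. PS-MP replicate 3 stood apart from the other PS-MP libraries over all genes: the chi-square of read counts per degree of freedom was 28.3 and 26.2 for its pairs with PS-MP replicates 1 and 2, against 11.8 between those 2 and 9.99 to 11.97 between water libraries. Transcripts of brain were high in the same library: the sum of 8 forebrain neuron markers was 28.1, 18.1 and 188 CPM in PS-MP replicates 1, 2 and 3, against 9.68 to 11 CPM in water. All 8 of these markers were higher in PS-MP replicate 3 than in any water library, and 2 of them had no read in water. The sum of 8 oligodendrocyte and astrocyte markers was 341 to 495 CPM in PS-MP and 261 to 314 CPM in water. Of these markers 7 of 8 were higher in PS-MP replicate 3 than in any water library, and 3 had no read in water. Most of that sum came from Slc1a2, which had 18.6 to 33.1 FPKM over all 6 libraries. Slc1a2 gave 4743, 5217 and 6493 of 5103, 5431 and 7380 reads in PS-MP replicates 1, 2 and 3. In water replicates 1, 2 and 3 it gave 4426, 4955 and 3546 of 4646, 5319 and 3787 reads. The summed markers of Kupffer cells, sinusoidal endothelium, stellate cells and fat overlapped between the groups. Much of the fat sum was Cidec, with 501, 567 and 578 reads in PS-MP and 457, 810 and 693 in water, replicates 1, 2 and 3. Other fat markers were uneven between libraries. Adipoq had 0, 0 and 29 reads in PS-MP replicates 1, 2 and 3, against 76, 3 and 13 in water replicates 1, 2 and 3. Cfd had 0, 0 and 74 reads in PS-MP and 204, 5 and 73 in water, in the same order. Because the tissue was sampled in bulk, fewer cells of a type and less RNA per cell cannot be told apart.

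Promoter sequences are shown for 3 members because Elovl5 and Hacd3 had every PS-MP value below every water value, while Elovl2, which acts beside Elovl5, did not. RefSeq sequences on GRCm38.p6 were found for 6 of the 10 members (not for Elovl3, Fads1, Scd1 and Scd2), in windows of 250 bases before to 50 bases after a start site. Capitals mark the E-box CACGTG, the cyclic AMP response element TGACGTCA and the CCAAT box CCAAT, each searched on both strands; no matches overlapped one another.
Elovl5, chr9:77917115-77917414, plus strand: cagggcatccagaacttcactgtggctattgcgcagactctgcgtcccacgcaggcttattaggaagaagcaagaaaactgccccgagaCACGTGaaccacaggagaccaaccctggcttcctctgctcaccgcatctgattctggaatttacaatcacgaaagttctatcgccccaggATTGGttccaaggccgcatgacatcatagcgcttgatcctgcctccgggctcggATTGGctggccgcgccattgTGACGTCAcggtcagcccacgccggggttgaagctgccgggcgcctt
Hacd3, chr9:65021668-65021967, minus strand: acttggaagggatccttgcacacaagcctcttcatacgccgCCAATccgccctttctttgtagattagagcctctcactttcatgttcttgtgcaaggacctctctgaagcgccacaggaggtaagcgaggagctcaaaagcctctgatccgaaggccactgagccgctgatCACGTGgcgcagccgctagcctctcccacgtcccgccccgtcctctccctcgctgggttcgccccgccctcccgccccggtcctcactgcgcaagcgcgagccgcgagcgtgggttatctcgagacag
Elovl2, chr13:41220354-41220653, minus strand: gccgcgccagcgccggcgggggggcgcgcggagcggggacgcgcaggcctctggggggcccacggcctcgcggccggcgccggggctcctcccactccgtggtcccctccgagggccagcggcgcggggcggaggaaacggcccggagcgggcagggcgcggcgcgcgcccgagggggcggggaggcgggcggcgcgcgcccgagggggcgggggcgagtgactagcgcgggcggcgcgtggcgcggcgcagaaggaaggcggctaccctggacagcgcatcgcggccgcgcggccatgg

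The Elovl5 window held 1 E-box, beginning 161 bases before the start site, 1 cyclic AMP response element and 2 CCAAT boxes. The Hacd3 window also held 1 E-box, beginning 78 bases before the start site, and 1 CCAAT box. The Elovl2 window shown held none of these, nor did the other RefSeq window of Elovl2 (chr13:41220113-41220412). The GC content was 84.7% and 76.7% in these Elovl2 windows, 57.7% for Elovl5 and 61.7% for Hacd3. Among the matched members not shown, Elovl1 held 1 CCAAT box and no E-box or cyclic AMP response element. Elovl6 and Fads2 held none of the motifs marked in capitals. Over all 32851 promoter windows, 7.15% held the E-box, 1.79% the cyclic AMP response element and 37.4% the CCAAT box. The sterol response element TCACNCCAC and the D-box TTANGTAA, read by the clock output factors, were also searched. Neither was found in any window of the 6 members, and over all windows they were present in 1.24% and 2.32%. Elovl3, whose PS-MP values also all lay below its water values, had no matched window. A match describes the letters only, and whether any motif bears on these levels was not tested.

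All 10 members were measured well enough to enter the comparison, which was fitted with limma-trend on log2(FPKM + 0.5) over 13299 genes. At an adjusted p under 0.05, 1 of the 10 was called, Elovl5, and it was lower in PS-MP; over all genes tested 0.489% were called, and 0.248% were called lower. In 4 of the 10 members the PS-MP and water values did not overlap (Elovl5, Elovl3 and Hacd3 below water, Scd2 above), where this held for 19.2% of all genes tested, 8.12% with PS-MP below and 11.1% with PS-MP above. The members had a median log2 fold change of -0.07, against 0.01 for all genes tested.

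**Figure D1:**
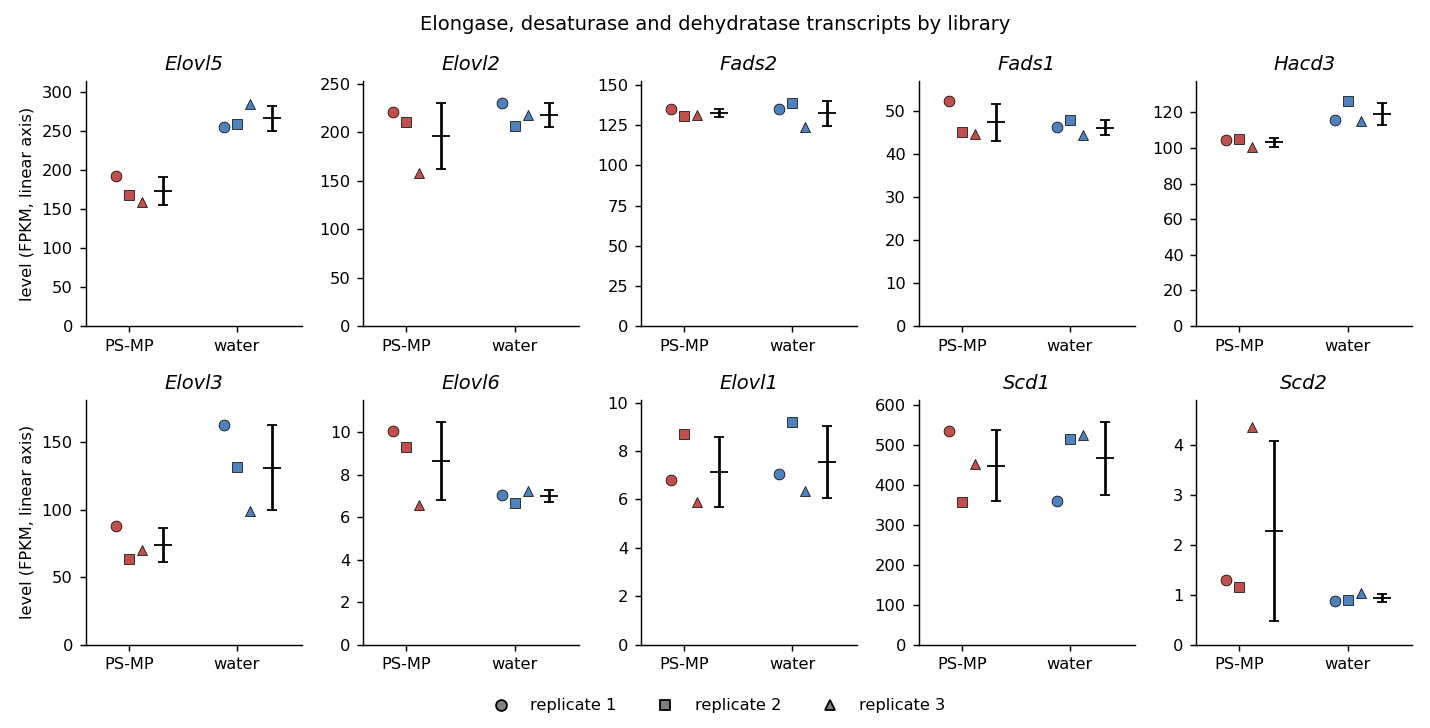
Levels of the 10 transcripts in FPKM (vertical axes, linear and starting at 0) in the 3 PS-MP libraries (red, left) and the 3 water libraries (blue, right); symbols mark the replicate and black bars the mean ± SD. Elovl5, Elovl3 and Hacd3 have every PS-MP point below every water point, and Scd2 has 1 high PS-MP point, replicate 3.

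The elongases of polyunsaturated fatty acids are Elovl5 and Elovl2. ELOVL5 lengthens the products of FADS2 on the way to arachidonate and docosahexaenoate. Elovl5 (ENSMUSG00000032349, chromosome 9, 77917364 to 77984519, plus strand, GRCm38) had 193, 168 and 159 FPKM in PS-MP replicates 1, 2 and 3, against 255, 259 and 284 FPKM in water replicates 1, 2 and 3. The groups were apart, with the highest PS-MP value well under the lowest water value. It averaged 173 ± 17.5 FPKM in PS-MP and 266 ± 15.9 FPKM in water (SD, n = 3 each), a log2 fold change of -0.62 with a standard error of 0.09 and a 95% interval from -0.83 to -0.41, or 0.650 times the water level (adjusted p = 0.0401 by limma). These levels rest on 8356 to 9410 reads in PS-MP and on 13642 to 15457 reads in water, and no annotated gene overlaps Elovl5.

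Elovl5 was called in 6 of the 14 alternative fits. Leaving out PS-MP replicate 1 kept the call (adjusted p = 0.0446), whereas leaving out PS-MP replicate 2 or 3, or water replicate 1, 2 or 3, gave a limma adjusted p of 0.125, 0.0808, 0.154, 0.0988 and 0.170 in that order. Its log2 fold change stayed between -0.70 and -0.56 in these fits. Without PS-MP replicate 3, the library with most brain transcripts, it was -0.56.

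Elovl2 takes the products of Elovl5 further towards docosahexaenoate. It had 221, 211 and 158 FPKM in PS-MP replicates 1, 2 and 3, against 230, 206 and 218 FPKM in water replicates 1, 2 and 3. PS-MP replicate 3 was the lowest of the 6, and the other 2 PS-MP values lay within the water range. The log2 fold change was -0.16, with a 95% interval from -0.46 to 0.13 (adjusted p = 0.626 by limma). Without PS-MP replicate 3 it was -0.01.

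The order of the 2 elongases by level per kilobase differed between the groups. Elovl5 was above Elovl2 in 1 of 3 PS-MP libraries, with ratios of 0.872, 0.795 and 1.01 in replicates 1, 2 and 3, and above it in 3 of 3 water libraries, where the ratios were 1.11, 1.26 and 1.31. The mean ratio was 0.892 ± 0.109 in PS-MP and 1.223 ± 0.104 in water (SD, n = 3 each). Set against Fads2, which acts before it, Elovl5 had ratios of 1.21 to 1.42 in PS-MP and of 1.86 to 2.30 in water. These ratios carry the Elovl5 difference already described and were not tested.

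**Figure D2:**
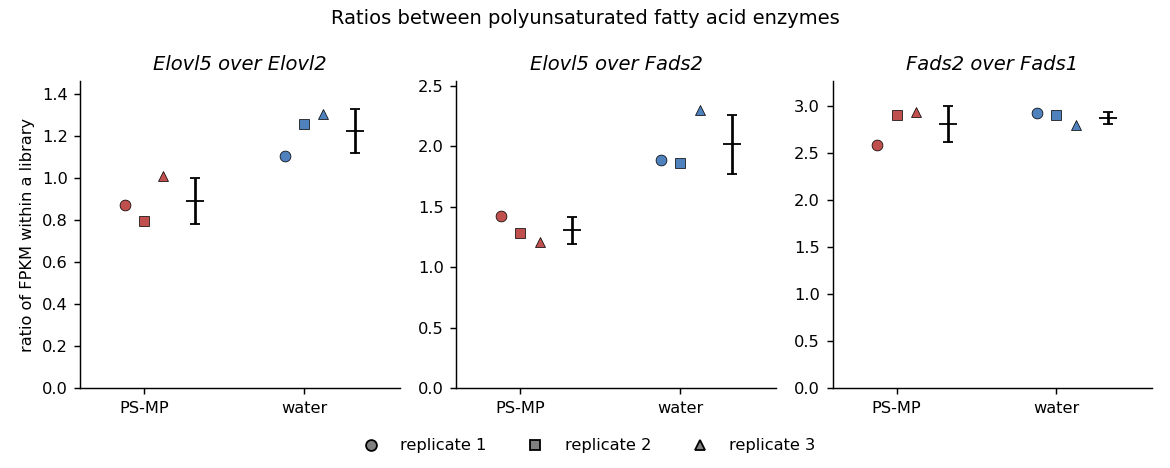
Ratios of FPKM within each library (vertical axes, linear and starting at 0) for Elovl5 over Elovl2, Elovl5 over Fads2 and Fads2 over Fads1, in PS-MP (red, left) and water (blue, right), with mean ± SD as black bars. Both ratios with Elovl5 are lower in every PS-MP library than in any water library, and the PS-MP and water ranges of Fads2 over Fads1 overlap.

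The front-end desaturases Fads2 and Fads1 had the log2 fold changes nearest to 0 among the members. FADS2 adds the first of the new double bonds to linoleate and alpha-linolenate, and FADS1 adds the later one that gives arachidonate. Fads2 had 135, 131 and 132 FPKM in PS-MP replicates 1, 2 and 3, against 135, 139 and 124 FPKM in water replicates 1, 2 and 3. Its groups overlapped, and its log2 fold change was 0.00 with a 95% interval from -0.15 to 0.16 (adjusted p = 0.996 by limma). Fads1 had 52.3, 45.1 and 44.7 FPKM in PS-MP replicates 1, 2 and 3, against 46.2, 47.9 and 44.3 FPKM in water replicates 1, 2 and 3. The log2 fold change of Fads1 was 0.03, with an interval from -0.15 to 0.22 (adjusted p = 0.883 by limma). The ratio of Fads2 to Fads1 was 2.81 ± 0.193 in PS-MP and 2.88 ± 0.0679 in water (SD, n = 3 each). Both intervals leave out a change as large as that of Elovl5.

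Both genes lie on chromosome 19 with Fads3, and the gap between Fads1 and Fads2 is 81.1 kb with no protein-coding gene between them. Fads3, a relative of Fads1 and Fads2 that acts on sphingoid bases and is no member here, had 5.02, 6.17 and 4.76 FPKM in PS-MP replicates 1, 2 and 3, against 3.51, 3.03 and 4.21 FPKM in water replicates 1, 2 and 3. Its values did not overlap, and it was not called (adjusted p = 0.179 by limma), with a log2 fold change of 0.51 ± 0.14 (standard error).

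Among the elongases of saturated and monounsaturated fatty acids, Elovl3 had the lowest log2 fold change of the 10 members but did not pass the test. ELOVL3 makes very long saturated and monounsaturated chains, and in mice its transcript is known from liver, where it follows the time of day, from brown fat and from sebaceous glands. Elovl3 (ENSMUSG00000038754, chromosome 19, 46131897 to 46135694, plus strand) had 88.1, 63.1 and 70.2 FPKM in PS-MP replicates 1, 2 and 3, against 163, 132 and 99.1 FPKM in water replicates 1, 2 and 3. All PS-MP values lay under all water values, and the water values were widely spread. It averaged 73.8 ± 12.9 FPKM in PS-MP and 131 ± 31.8 FPKM in water (SD, n = 3 each), with a log2 fold change of -0.81 ± 0.19 (standard error; adjusted p = 0.131 by limma).

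Brown fat transcripts were present in some libraries. Ucp1, the uncoupling protein that defines brown fat, had 0, 0 and 68 reads in PS-MP replicates 1, 2 and 3, against 139, 0 and 15 reads in water replicates 1, 2 and 3. Water replicate 1 was highest for both Ucp1 and Elovl3. The other libraries did not keep the same order for these genes. PS-MP replicate 3, with 68 Ucp1 reads, had 70.2 FPKM of Elovl3, and water replicate 2, with 0 Ucp1 reads, had 132 FPKM. With the libraries that hold Ucp1 reads left out (PS-MP replicate 3 and water replicates 1 and 3), the log2 fold change of Elovl3 was -0.82 (adjusted p = 0.596 by limma); that fit has 1 water library, assumed to vary like the others. The part of brown fat RNA in the Elovl3 value was not tested. Over 5 brown fat markers without Elovl3, the sum was 29.5, 46.7 and 32.6 CPM in PS-MP and 27.0, 19.1 and 22.0 CPM in water, most of it from Ppargc1a, which liver also expresses. Elovl3 overlaps Pitx3, which had 219 reads over all libraries. Without PS-MP replicate 3 alone, the log2 fold change of Elovl3 was -0.78.

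**Figure D3:**
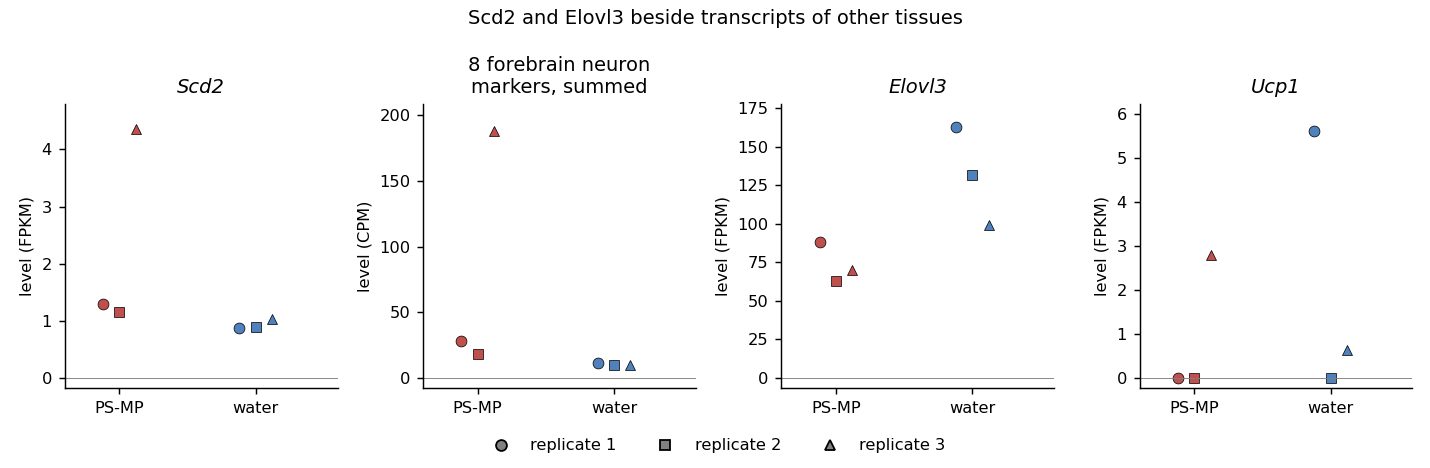
Levels by library (linear axes, points only) of Scd2 in FPKM, of 8 forebrain neuron markers summed in CPM, of Elovl3 in FPKM and of Ucp1 in FPKM, with PS-MP in red on the left and water in blue on the right. PS-MP replicate 3 is highest for Scd2 and for the neuron markers, and water replicate 1 is highest for Elovl3 and Ucp1. The order of the other libraries differs between Elovl3 and Ucp1.

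Elovl6 lengthens palmitate to stearate, the step between fatty acid synthase and SCD1. It had 10.1, 9.29 and 6.56 FPKM in PS-MP replicates 1, 2 and 3, against 7.05, 6.67 and 7.22 FPKM in water replicates 1, 2 and 3. PS-MP replicates 1 and 2 were the highest of the 6 libraries and PS-MP replicate 3 was the lowest, so the groups overlapped. The log2 fold change was 0.27 with a 95% interval from -0.07 to 0.60 (adjusted p = 0.484 by limma), and 0.44 without PS-MP replicate 3.

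Elovl1, which is expressed in most tissues and makes the very long saturated chains of sphingolipids, had 6.81, 8.70 and 5.88 FPKM in PS-MP replicates 1, 2 and 3. Water replicates 1, 2 and 3 had 7.05, 9.20 and 6.34 FPKM. The groups overlapped, with a log2 fold change of -0.07 and a 95% interval from -0.46 to 0.31 (adjusted p = 0.883 by limma). Its direction turned without PS-MP replicate 3 (0.05) or water replicate 2 (0.07).

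Of the stearoyl-CoA desaturases, Scd1 was the most abundant member in every library and Scd2 the least. SCD1 is the main form of adult mouse liver and SCD2 that of brain. Scd1 had 535, 358 and 451 FPKM in PS-MP replicates 1, 2 and 3, against 361, 514 and 524 FPKM in water replicates 1, 2 and 3. The values overlapped throughout, with a log2 fold change of -0.06 and a 95% interval from -0.49 to 0.37 (adjusted p = 0.922 by limma). It turned sign without PS-MP replicate 2 (0.09), water replicate 2 (0.02) or water replicate 3 (0.04). Scd1 made up 32.6% to 39.9% of the summed FPKM of the members in PS-MP and 27.3% to 36.8% in water.

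Scd2 had 1.30, 1.16 and 4.35 FPKM in PS-MP replicates 1, 2 and 3, from 93, 101 and 355 reads. In water replicates 1, 2 and 3 it had 0.868, 0.896 and 1.03 FPKM, from 72, 83 and 82 reads. PS-MP replicate 3 stood far above the other 5 libraries, and it is also the library with the most brain transcripts: reads of Snap25, which serves transmitter release in neurons, numbered 61, 19 and 860 in PS-MP replicates 1, 2 and 3, against 1, 2 and 0 in water replicates 1, 2 and 3. The log2 fold change of Scd2 was 0.77 with a standard error of 0.37 (adjusted p = 0.432 by limma), and 0.27 without PS-MP replicate 3. The part of brain RNA in the Scd2 value was not tested. Scd3 and Scd4, close copies in the same cluster on chromosome 19, had at most 3 reads in any library. How the authors' counting placed reads that match several Scd copies is not stated, so the Scd levels are uncertain to that extent.

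Hacd3, a dehydratase of the elongation cycle, had 105, 105 and 100.4 FPKM in PS-MP replicates 1, 2 and 3, against 116, 126 and 115 FPKM in water replicates 1, 2 and 3. The groups were apart by a small distance, with means of 103 ± 2.56 FPKM in PS-MP and 119 ± 6.16 FPKM in water (SD, n = 3 each). Its log2 fold change of -0.20, with a standard error of 0.07, was not called (adjusted p = 0.255 by limma).

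**Figure D4:**
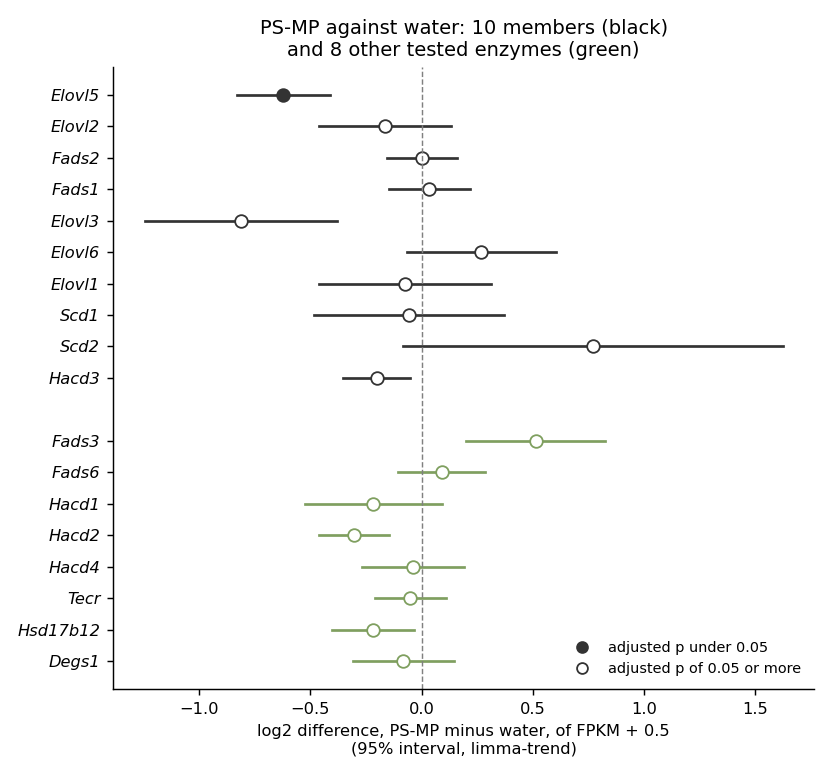
Log2 difference of FPKM + 0.5, PS-MP minus water (horizontal axis), with 95% intervals from limma-trend, for the 10 members (black) and 8 other tested enzymes of the pathway (green); a filled point has an adjusted p under 0.05. Elovl5 at -0.62 is the only filled point among these 18 genes.

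By mean level per kilobase, the PS-MP order ran from Scd1 (448 FPKM) through Elovl2, Elovl5, Fads2, Hacd3, Elovl3, Fads1, Elovl6 and Elovl1 to Scd2 (2.27 FPKM). The ranges of Elovl2 and Elovl5 overlapped there, as did those of Elovl6 and Elovl1, and the other neighbours were apart. The water order ran from Scd1 (466 FPKM) through Elovl5, Elovl2, Fads2, Elovl3, Hacd3, Fads1, Elovl1 and Elovl6 to Scd2 (0.933 FPKM). Neighbours whose ranges overlapped in water were Fads2 and Elovl3, Elovl3 and Hacd3, and Elovl1 and Elovl6.

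The genes most like Elovl5 over the 6 libraries were sought by the root mean square difference of centred log2(FPKM + 0.5) among 9314 candidates. Candidates were tested genes with a mean of at least 1 FPKM, without predicted gene models (symbols beginning with Gm and a digit, or ending in Rik). The nearest were Nedd4l (0.0359), a ubiquitin ligase, Nelfa (0.0626), a subunit of the negative elongation factor of transcription, and Rnf144a (0.0669), a ubiquitin ligase. Of these, Nelfa was called (adjusted p = 0.0486 by limma), and Nedd4l and Rnf144a were not. For Elovl3 the nearest were Nfil3 (0.170), a repressor of the circadian output pathway, Ccng2 (0.183), a cyclin, and Irf2bp2 (0.189), a transcriptional cofactor. Nfil3 had 7.39, 6.32 and 4.96 FPKM in PS-MP replicates 1, 2 and 3, against 15.1, 11.3 and 10.4 FPKM in water replicates 1, 2 and 3. For Scd1 the nearest were Spata5l1 (0.0571), H2-Aa (0.0941), an MHC class II chain, and Ufsp1 (0.0982). All of these values come from the same libraries as the members.

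Around the members, 71 genes of 7 lists were read from the same fit, of which 61 were tested. In them 1 gene was called, Acsl1, and 0.489% of all genes tested were called. Their median log2 fold change was 0.00, and their values did not overlap in 15 of 61, 6 with PS-MP above and 9 with PS-MP below; over all genes tested the shares were 19.2%, 11.1% and 8.12%. An unadjusted p under 0.05 was found for 15 of the 61, and for 13.1% of all genes tested.

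Other elongases, desaturases and enzymes of the elongation cycle gave 0 calls with limma-trend among 8 tested of 13 listed (3 had an unadjusted p under 0.05, and limma-voom also called 0), with a median log2 fold change of -0.07. The largest signals were of Hacd2, a dehydratase like Hacd3, at -0.30 (11.05, 10.5 and 10.3 FPKM in PS-MP and 13.2, 13.7 and 12.7 FPKM in water, replicates 1, 2 and 3), and of Fads3, given above. Hsd17b12, the ketoreductase of the cycle, was at -0.22 and Tecr, its last reductase, at -0.05; these 2 were chosen after their values were seen. The PS-MP and water values were apart for Hacd2 and Hsd17b12 and overlapped for Tecr. Elovl7, Elovl4, Scd3, Scd4 and Degs2 were under the low-count rule.

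The electron donors of the desaturases gave 0 calls among 5 tested with limma-trend (0 had an unadjusted p under 0.05, and limma-voom called 0). Cyb5r3, a reductase of cytochrome b5, had a log2 fold change of 0.11, and Cyb5a, microsomal cytochrome b5, had 0.12. Regulators of these genes gave 0 calls among 13 (4 had an unadjusted p under 0.05, and limma-voom called 0). Srebf1, which encodes SREBP-1, had 4.36, 3.99 and 6.64 FPKM in PS-MP replicates 1, 2 and 3, against 3.20, 3.10 and 3.19 FPKM in water replicates 1, 2 and 3. Its values did not overlap, and it was not called (log2 fold change 0.55, adjusted p = 0.229 by limma); it overlaps Rai1. Rxra, the partner of LXR and PPARalpha, had 0.24 and an adjusted p of 0.220.

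Suppliers of palmitate and malonyl-CoA gave 0 calls among 9 (1 had an unadjusted p under 0.05, and limma-voom called 0). Thrsp, a lipogenic protein that acts with fatty acid synthase, had 13.2, 7.57 and 21.9 FPKM in PS-MP replicates 1, 2 and 3, against 3.10, 7.60 and 4.03 FPKM in water replicates 1, 2 and 3, a log2 fold change of 1.41 that was not called (adjusted p = 0.198 by limma). Its values just overlapped. Fasn, fatty acid synthase, had 0.34 (adjusted p = 0.384). The peroxisomal steps that finish docosahexaenoate gave 0 calls among 9 (2 had an unadjusted p under 0.05, and limma-voom called 0), with a median of -0.10. Ehhadh, the peroxisomal bifunctional enzyme, had a log2 fold change of -0.65 that was not called (adjusted p = 0.331 by limma), and its values overlapped between the groups.

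In the list for activation and esterification of polyunsaturated fatty acids, 1 of 10 tested genes was called, against 0.489% of all genes tested. Acsl1, which activates long-chain fatty acids with coenzyme A, was lower, with 178, 197 and 185 FPKM in PS-MP replicates 1, 2 and 3, against 265, 271 and 258 FPKM in water replicates 1, 2 and 3. Its log2 fold change was -0.50 with a standard error of 0.07 (adjusted p = 0.0386 by limma), and the call was lost when any single library was left out, with an adjusted p from 0.0705 to 0.154 and log2 fold changes from -0.54 to -0.47. Acsl1 overlaps Gm45244, which had 584 reads over all libraries. Mfsd2a, which carries lysophospholipids that hold docosahexaenoate, had 115, 80.98 and 76.6 FPKM in PS-MP replicates 1, 2 and 3, against 42.3, 75.5 and 42.9 FPKM in water replicates 1, 2 and 3. Its values were just apart, and it was not called (log2 fold change 0.79, adjusted p = 0.236 by limma). Agpat3, an acyltransferase of phospholipid synthesis, had -0.17 and an adjusted p of 0.333.

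**Figure D5:**
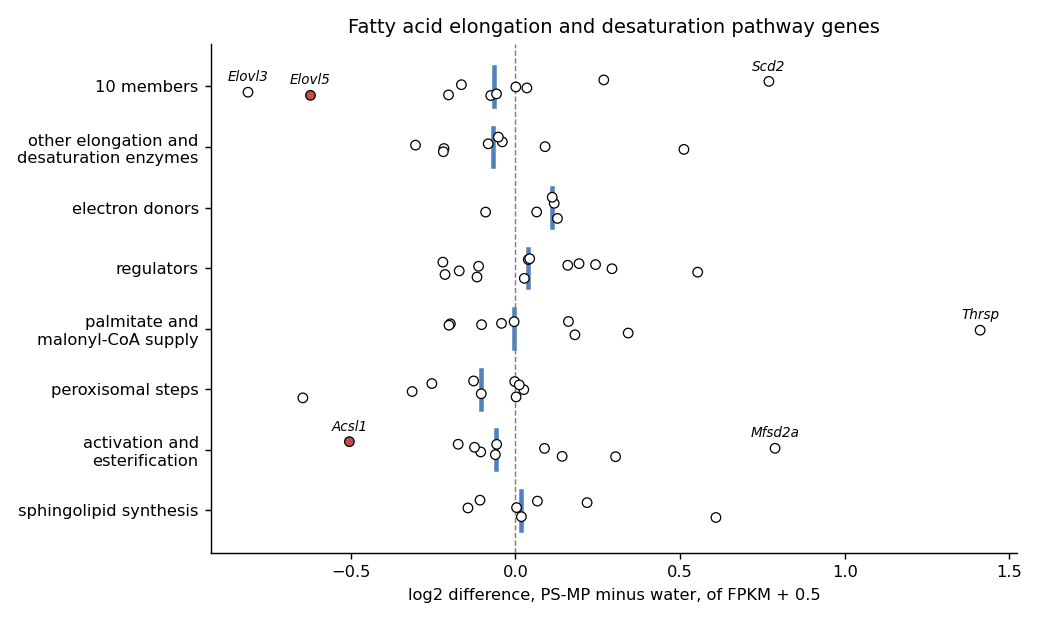
Log2 difference of FPKM + 0.5, PS-MP minus water (horizontal axis), of every tested gene, with the 10 members in the top row and 7 pathway lists below; blue bars are list medians and filled red points have an adjusted p under 0.05. Elovl5 and Acsl1 are the 2 filled points, and the list medians lie between -0.10 and 0.11.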

How the data were processed

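Liver RNA was sequenced in 3 libraries per group, grouped by the labels. The authors deposited 1 FPKM value per gene and library. According to the submitters' processing notes, CASAVA, FastQC, MultiQC, Trimmomatic 0.38, HISAT2 2.1.0, featureCounts 1.6.0 and DESeq2 1.22.1 were used; GRCh38 is the build named there, a human one, but the 55536 identifiers are all found in mouse GENCODE M21 on GRCm38, the source of symbols and coordinates. No strand setting is stated.

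Multiplied by merged exon length, 100.0% of values above 0 were whole reads within 0.001, and the recovered totals give depth and CPM. Genes with at least 0.66 CPM (10 reads in a median library) in 3 libraries and at least 15 reads in all were tested with limma-trend (limma 3.58.1, R 4.3.3) on log2(FPKM + 0.5), with Benjamini-Hochberg adjustment over 13299 genes at 0.05. Fold changes on that scale understate those of low genes. Counting intervals cover counting error only. Members and lists were chosen with earlier results of these data known. Named genes are the members, in each list those called and up to 2 others with the smallest p, and 3 genes most like Elovl5, Elovl3 and Scd1; 1 gene that this rule names is not reported here. The fits were first tested on simulated data with an assumed spread. There limma-trend recovered 5.47% of 1.5-fold, 45.8% of 2-fold and 99.5% of 4-fold changes, and limma-voom 11.9%, 61.7% and 100%. Absence of a call therefore says little about changes of 1.5-fold or less, and 2-fold changes were also often missed. No 2 libraries of a group were identical, and their read chi-square was 9.99 to 28.3 per degree of freedom, highest in the pairs with PS-MP replicate 3. Alternatives changed scaling, pseudocount, low-count rule, model, block and libraries.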

Additional observations from a re-analysis of the deposited data

Results flagged for a closer look

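Reads were also seen in 3 pathway genes that were too low to be tested, each above water beyond counting error (95% exact Poisson intervals) in PS-MP replicate 3. Elovl4, an elongase of very long polyunsaturated chains known from retina, brain and skin, had 1.54 CPM there (23 reads, interval from 0.977 CPM), against at most 0.0590 CPM (1 read, interval to 0.329 CPM) in water. Acsl6, an acyl-CoA synthetase of brain, had 3.15 CPM (47 reads) in PS-MP replicate 3, against at most 0.138 CPM (2 reads) in water. Mboat2, a lysophospholipid acyltransferase, had 1.41 CPM (21 reads), against at most 0.118 CPM (2 reads) in water. In PS-MP replicates 1 and 2 these genes had 1 to 4 reads. The summed forebrain markers were also highest in PS-MP replicate 3 (188 CPM), and their part in these values was not tested. The other 7 untested pathway genes did not exceed water in this way. For each gene the highest PS-MP library was set against the highest water library. PS-MP replicate 3 also had the most genes with a read, 21836 against 20313 to 20719 in the other libraries. The share of all untested genes that would pass the same rule was not determined.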

How the results depend on the processing

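Over all genes limma called 65, against 0 with no low-count filter (2064 had an unadjusted p under 0.05), 133 with limma-voom on recovered reads, 23 with the replicate block (18 of them among the 65), 0 with the libraries holding Ucp1 reads left out (1037 unadjusted; the lone water library is assumed to vary like the others), and 0 to 36 with 1 library left out (0 without water replicate 3, where 1641 had an unadjusted p under 0.05). The count of members called was 0 with no filter, the replicate block or the Ucp1 libraries left out (3, 4 and 4 unadjusted), and 0 to 1 with 1 library left out (2 to 4 unadjusted where 0); limma-voom called 1. Listed pathway genes called numbered 0 in those 3 fits (11, 14 and 6 unadjusted), 2 with limma-voom (Acsl1 and Cers6) and 0 with each library left out (10 to 16 unadjusted). Elovl5 kept its direction in 14 of 14 fits (log2 fold change from -0.70 to -0.53, adjusted p from 0.0142 to 0.592). Its adjusted p was 0.133 with no filter, 0.112 with the replicate block and 0.592 without the Ucp1 libraries. Elovl3, Elovl6, Scd2 and Hacd3 also kept direction in 14 fits, and none of these 4 was called in any.

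Members near 0 turned sign in some fits. Fads2 was at -0.0150 with median-of-ratios scaling and -0.0621 without the Ucp1 libraries, and Elovl2 at 0.0671 there. With 1 library left out the log2 fold change ran from -0.218 to 0.0694 for Elovl1, -0.0374 to 0.0744 for Fads1, -0.0467 to 0.0361 for Fads2 and -0.232 to 0.0946 for Scd1. The cause of these moves was not tested. Same-numbered libraries did not deviate together (r = -0.04, 0.05 and -0.01 for numbers 1, 2 and 3), and not every library correlated best with its own number. With 3 libraries in each group, these correlations cannot tell whether a number marks a batch or a pairing, which the labels do not state. Depth limits the low genes: Scd2 rests on 72 to 355 reads a library.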

Other observations

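Ceramide synthases and other enzymes of sphingolipid synthesis, only some of which use the very long chains made by ELOVL1, gave 0 calls with limma-trend among 7 tested genes (2 had an unadjusted p under 0.05, and limma-voom called 1), with a median log2 fold change of 0.02. Cers6, the ceramide synthase that prefers palmitoyl-CoA, had 3.77, 3.17 and 3.09 FPKM in PS-MP replicates 1, 2 and 3, against 1.72, 2.01 and 2.34 FPKM in water replicates 1, 2 and 3. Its values did not overlap. Its log2 fold change was 0.61 ± 0.12 (standard error; adjusted p = 0.104 by limma-trend), and over the 14 alternatives the adjusted p ran from 0.0356, with limma-voom, to 0.602. Cers5, which has a similar substrate range, had 0.22 and an adjusted p of 0.369. Cers2, the synthase of very long chain ceramides and the most abundant in these livers, chosen after its values were seen, had 60.8, 58.3 and 60.1 FPKM in PS-MP replicates 1, 2 and 3, against 55.4, 59.7 and 55.9 FPKM in water replicates 1, 2 and 3, and its groups overlapped. Cers2 overlaps Setdb1, and the strand used in counting is not stated.

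The summed FPKM of the 10 members was 1347, 1099.7 and 1131 in PS-MP replicates 1, 2 and 3, against 1321, 1441 and 1423 in water replicates 1, 2 and 3, and the groups overlapped. Elovl5 made up 14.3%, 15.2% and 14.1% of that sum in PS-MP replicates 1, 2 and 3, against 19.3%, 17.97% and 19.98% in water replicates 1, 2 and 3.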
